A study of Mus musculus with 4 samples.

Results

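The genes described here build, cap, cut, crosslink and anchor actin filaments. They were chosen by a fixed set of symbols in the deposited table, each encoding a subunit of the Arp2/3 complex or of capping protein, a cofilin, profilin, formin of the Diaphanous group, WAVE protein, alpha-actinin, filamin, tropomodulin, leiomodin, PDLIM protein, parvin or talin, together with Vasp, Enah, Evl, Zyx, Vcl, Pxn, Ptk2, Ilk, Gsn, Csrp1, Csrp2 and Tes. This gave 60 genes of the 25965 in the table, and the rule used no measured value. RNA had been sequenced from 4 cultures of vascular smooth muscle cells, which contract the wall of arteries. The donors were males of background C57Bl/6 and wild-type genotype, 8 to 14 weeks old, and the cells came from the medial layer of the aorta. Collagenase and elastase freed the cells, which went through 3 to 5 passages in medium with serum. All 4 libraries formed 1 group without a control, and the labels do not say whether they came from separate animals, so the spread between libraries may be technical in part.

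Actin monomers are kept ready for growth by profilin, and cofilin and gelsolin cut old filaments and return their monomers. New filaments start as branches at the Arp2/3 complex, which WAVE proteins switch on, or as straight filaments at formins. Capping protein closes the growing end, and tropomodulins close the slow-growing end. Alpha-actinins and filamins join filaments into bundles and networks, and talin, vinculin, paxillin, zyxin and the kinase FAK and pseudokinase ILK tie them to integrins at focal adhesions. In smooth muscle this scaffold carries contractile force to the matrix, and in culture it serves spreading and migration.

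Levels are log2 scaled read counts as deposited, where 0 is a scaled count of 1. Levels of different genes were compared only after division by exon length, as log2 scaled reads per kb. The libraries held between 40342561 and 56793195 recovered reads on genes, lowest in library 3. A gene was called detected with a log2 level of at least 0 in 4 of 4 libraries. All 7 smooth muscle markers examined were detected, among them Acta2, Myh11 and Cnn1, against 2 of 10 leukocyte, 4 of 7 endothelial, 6 of 7 adventitial fibroblast, 4 of 6 pericyte, 4 of 5 mesothelial and 3 of 7 cardiac and skeletal muscle markers. The defining lymphocyte genes Cd3e and Cd79a and the cardiac gene Myh6 had no reads. The detected leukocyte genes were Csf1r and Lyz2, and the detected cardiac and skeletal muscle genes were Acta1, Tnnt2 and Tnni3. Acta1 had 201, 152, 7666 and 16561 reads in libraries 1 to 4, and Tnnt2 had 4711, 4545, 10403 and 4980. In bulk RNA, fewer cells of a type and less RNA per cell cannot be told apart.

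Of the 60 genes, 52 were detected (86.7%), against 47.4% of all genes in the table. The 52 detected genes had a median level of 5.61 ± 0.20 log2 scaled reads per kb (SD, n = 4), compared with 2.94 ± 0.30 over all detected genes. Of the 52, 19 (36.5%) lay in the top 10% of detected genes per kb, against 10% of all detected genes. The 60 genes together took 1.84%, 1.50%, 1.57% and 1.94% of the reads on genes in libraries 1 to 4, a mean of 1.71% ± 0.21. The share was higher in libraries 1 and 4 than in libraries 2 and 3. Crosslinkers took 0.531% ± 0.140 of all reads and monomer supply and severing genes 0.472% ± 0.036. In these shares, which are not divided by length, crosslinkers were above monomer supply in libraries 1 and 4 and below it in libraries 2 and 3. The shares in library 3 were close (0.443% and 0.448%). Per kb, the median of the detected monomer supply genes was the higher in each library. It was 9.11, 9.52, 9.30 and 9.61 in libraries 1 to 4, against 7.96, 7.15, 7.03 and 7.80 for crosslinkers. The nucleation and elongation genes took the fewest reads in each of the 4 libraries, 0.0417% ± 0.0044.

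**Figure D1:**
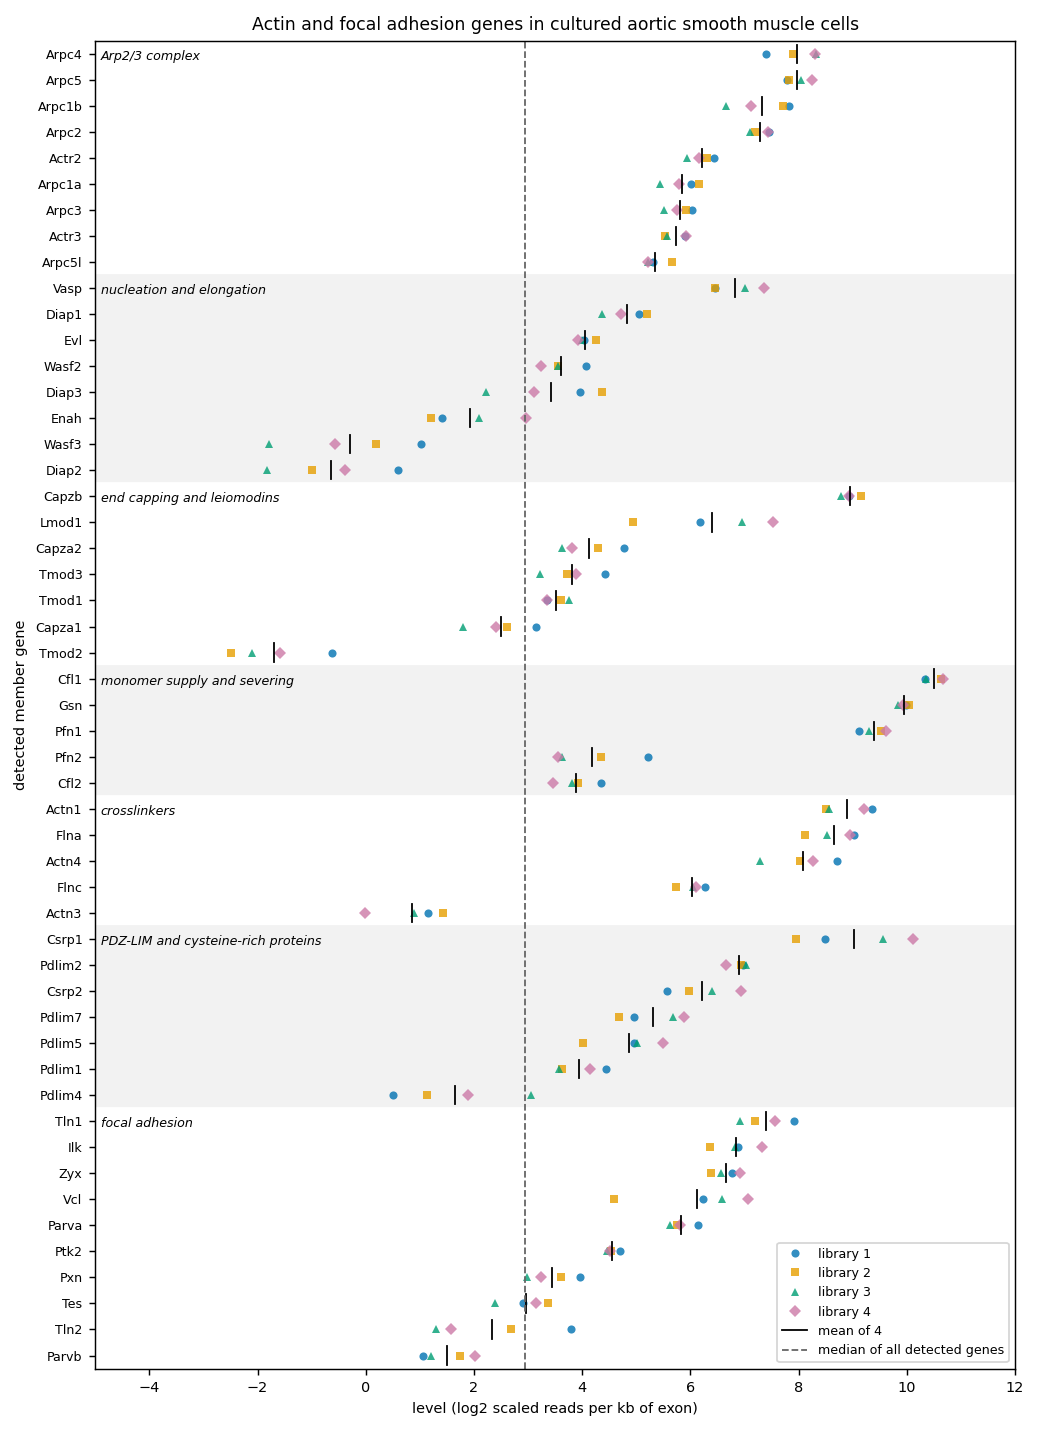
Level of 51 of the 52 detected genes on the log2 scaled reads per kb axis, grouped by role, with a symbol for each of the 4 libraries, a black bar at their mean and a dashed line at the median of all detected genes. Cfl1, Gsn and Pfn1 stand farthest right, and Diap2 and Tmod2 farthest left.

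Monomer supply and severing was led per kb by Cfl1, Gsn and Pfn1. Cfl1, encoding the main nonmuscle cofilin, had log2 levels of 11.84, 12.14, 11.86 and 12.18 in libraries 1 to 4. Gsn, encoding the calcium-activated severing protein gelsolin, had log2 levels of 11.65, 11.69, 11.50 and 11.58. The SD of Gsn was 0.08 on the log2 scale, the lowest of the 52 detected genes as deposited, but 0.20 with median-ratio size factors, where Arpc3 (0.064) was lowest. These factors scale each library by the median ratio of its reads to the mean over libraries, taken on the log scale. Per kb, Cfl1 averaged 10.50 ± 0.18, Gsn 9.95 ± 0.08 and Pfn1, the ubiquitous profilin, 9.38 ± 0.22 log2 scaled reads per kb, at percentiles 99.6, 99.3 and 98.9 of detected genes. Cfl2, the cofilin typical of muscle, had log2 levels of 6.06, 5.64, 5.52 and 5.17. Per kb, Cfl1 exceeded Cfl2 by 6.61 ± 0.51 log2 units and supplied 98.9% ± 0.4 of the cofilin reads per kb. Pfn2, a profilin best known from neurons, had log2 levels of 7.05, 6.18, 5.45 and 5.38 in libraries 1 to 4. It was highest in library 1, and its share of the profilin reads per kb was 6.32% there, against 2.70%, 1.92% and 1.48% in libraries 2 to 4.

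All 9 Arp2/3 genes among the 60 (Actr2, Actr3 and those of the Arpc subunits) were detected, and 4 of them lay in the top 10% per kb. Arpc4, a core subunit, had log2 levels of 8.61, 9.10, 9.53 and 9.52 in libraries 1 to 4. Arpc5, a subunit with a paralog in Arpc5l, had log2 levels of 8.96, 9.01, 9.22 and 9.43, and Arpc5l had 7.48, 7.84, 7.38 and 7.38. Both Arpc4 and Arpc5 were lowest in library 1, also with median-ratio size factors. Arpc1b, a form of the beta-propeller subunit, had 10.18, 10.06, 9.02 and 9.47 and was lowest in library 3 under both scalings. Its SD of 0.54 passed 0.5, but fell to 0.29 with size factors. The 7 positions of the complex, with both forms of a position added up, ran from Actr3 at 5.73 ± 0.21 and Arpc3 at 5.80 ± 0.22 to Arpc4 at 7.97 ± 0.43 and Arpc5 with Arpc5l at 8.19 ± 0.17 log2 scaled reads per kb. The highest position exceeded the lowest by 2.59 ± 0.22 log2 units within a library. Actr3 and Arpc3 lay closer to each other than their spread. Of the 50-base words of the longest Actr3 transcript, 49.8% also occur in transcripts of other genes, and 42.2% of those of Arpc1b. The levels of Actr3 and Arpc1b are uncertain, since how reads with several matches were counted is not given in the sources used here. Arpc1b supplied 77.7%, 74.5%, 70.1% and 71.6% of the reads per kb of its position in libraries 1 to 4, and Arpc5 84.7%, 81.7%, 87.6% and 89.2% of its own.

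Filament starters and elongation factors were lower, with 8 of 9 genes detected and 1 in the top 10%. Vasp, encoding a factor that speeds growth of filament tips, had log2 levels of 7.84, 7.84, 8.39 and 8.75 in libraries 1 to 4. Libraries 3 and 4 were high and libraries 1 and 2 low. Per kb, Vasp exceeded its relatives Enah by 4.90 ± 0.36 and Evl by 2.77 ± 0.56 log2 units. Diap1, a formin activated by RhoA, had log2 levels of 7.72, 7.86, 7.02 and 7.39, and Diap2 had 4.12, 2.54, 1.71 and 3.15. Diap1 supplied 70.9% ± 7.8 of the reads per kb of the Diaphanous formins. Diap3 supplied 31.0%, 35.7%, 18.3% and 24.2% in libraries 1 to 4, so its share was lower in libraries 3 and 4. Among the WAVE genes, Wasf2, the form of most tissues, supplied 87.8% ± 5.2 of the reads per kb. Wasf3 had log2 levels of 3.41, 2.57, 0.59 and 1.81 in libraries 1 to 4, from 308, 172, 33 and 103 reads, an SD of 1.20 that was the largest of the 52 as deposited. With size factors it was 0.94, below those of Pdlim4, Lmod1, Vcl, Csrp1 and Enah. Wasf1, the form prominent in brain, reached the detection threshold in 3 of 4 libraries, with 76, 120, 40 and 17 reads.

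Among genes of the filament ends, 7 of 11 were detected, and Capzb and Lmod1 were the highest per kb. Capzb, the beta subunit of capping protein, had log2 levels of 10.65, 10.88, 10.51 and 10.65 in libraries 1 to 4 and averaged 8.95 ± 0.15 log2 scaled reads per kb. Its partners Capza1 and Capza2 together averaged 4.53 ± 0.52 per kb, and the beta subunit exceeded them by 4.42 ± 0.47 log2 units. Of the 50-base words of the longest Capza1 transcript, 77.4% also occur in transcripts of other genes, 73.3% in the single gene model Gm3608. The level of Capza1 is uncertain, since how reads with several matches were counted is not given in the sources used here. Capza3, a testis form, had no reads. Tmod3, the ubiquitous tropomodulin, and Tmod1, the form of striated muscle and red cells, averaged 3.81 ± 0.49 and 3.51 ± 0.20 log2 scaled reads per kb. Their difference changed sign in library 3 and was not larger than its spread (0.30 ± 0.68, exact two-sided sign-flip permutation test p = 0.375). This depended on the length used, since Tmod3 exceeded Tmod1 in 4 of 4 libraries with the longest transcript as length (1.49 ± 0.68) and without division by length (1.80 ± 0.68). Of the 50-base words of the longest Tmod1 transcript, 39.8% also occur in Tstd2, so the level of Tmod1 is uncertain too. Tmod2, a neuronal form, had log2 levels of 2.93, 1.05, 1.45 and 1.97.

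Lmod1, a smooth muscle leiomodin that nucleates actin filaments, had log2 levels of 8.15, 6.93, 8.93 and 9.50 in libraries 1 to 4. Library 4 was highest and library 2 lowest under both scalings, a span of 5.95-fold. Per kb, Lmod1 exceeded Tmod3 in 4 of 4 libraries, by 2.58 ± 1.28 log2 units. With the longest transcript as length the difference was 1.07 ± 1.28 and was negative in library 2 (-0.28). The leiomodins of striated muscle were at or near 0 reads. Lmod2 had none, which allows up to 3 reads in each library, and Lmod3 had 24 reads in library 4 and none in the others. Tmod4, a skeletal muscle form, had 1, 9, 3 and 0 reads.

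Actn1, Flna and Actn4 were among the highest genes of the scaffold. Actn1, the alpha-actinin of stress fibres and focal adhesions, had log2 levels of 11.82, 10.96, 11.03 and 11.67 in libraries 1 to 4. Flna, encoding the broadly expressed filamin A, had log2 levels of 12.26, 11.35, 11.75 and 12.18. Both were high in libraries 1 and 4 and lowest in library 2. Per kb, Actn1 averaged 8.90 ± 0.44, Flna 8.65 ± 0.42 and Actn4 8.07 ± 0.60 log2 scaled reads per kb, and Actn1 exceeded Actn4 by 0.83 ± 0.36 in 4 of 4 libraries. Per kb, Flna exceeded Flnc, the muscle filamin, by 2.62 ± 0.22 log2 units in 4 of 4 libraries. The alpha-actinins of the sarcomere were low. Actn3 had log2 levels of 2.68, 2.95, 2.42 and 1.52, and Actn2 had 26, 12, 10 and 15 reads and was not detected.

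**Figure D2:**
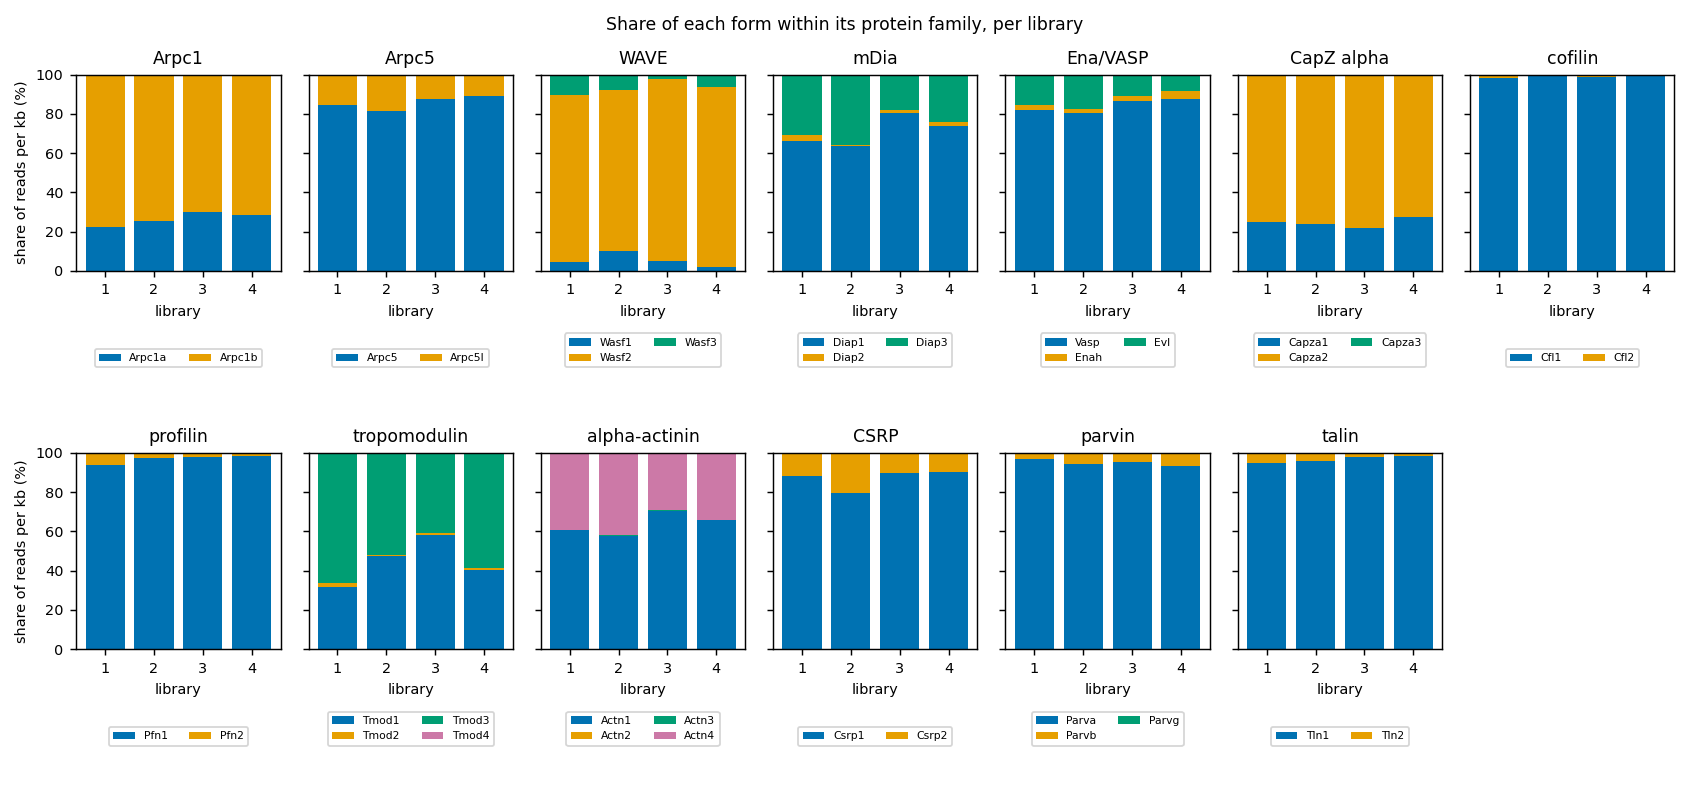
Share of each form in the reads per kb of its family, for 13 families, as stacked bars that add up to 100% for libraries 1 to 4. A single form holds most of each family drawn except the tropomodulins.

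The PDZ-LIM and cysteine-rich LIM proteins are adaptors of stress fibres. Of 8 genes, 7 were detected, and 5 of these (71.4%) had an SD above 0.5 on the log2 scale, a limit passed by 40.5% of all detected genes. The share was 57.1% for genes of the filament ends and 50% for nucleation and elongation. It was 33.3% for crosslinkers, 20% each for monomer supply and focal adhesion, and 11.1% for the Arp2/3 complex. Csrp1, encoding a cysteine-rich LIM protein of smooth muscle, had log2 levels of 9.45, 8.92, 10.52 and 11.08 in libraries 1 to 4. Libraries 3 and 4 were high and library 2 lowest, and the span was 4.47-fold. Csrp2, its paralog known from arterial smooth muscle, had log2 levels of 6.68, 7.09, 7.53 and 8.05. Csrp1 exceeded Csrp2 by 2.81 ± 0.56 log2 units per kb, and the Csrp2 share was 20.3% in library 2, against 11.7%, 10.1% and 9.93% in libraries 1, 3 and 4. Pdlim2 was steady as deposited (SD 0.16), with log2 levels of 9.14, 9.10, 9.20 and 8.83, but its SD was 0.30 with size factors. Pdlim4 had log2 levels of 1.85, 2.50, 4.41 and 3.25, highest in library 3 under both scalings. Pdlim7 and Pdlim5, adaptors that bind protein kinases through their LIM domains, averaged 5.30 ± 0.58 and 4.87 ± 0.62 log2 scaled reads per kb. Their difference of 0.43 ± 0.32 had 1 sign in 3 of 4 libraries (exact two-sided sign-flip permutation test p = 0.25), and it was 0.05 with the longest transcript as length and -0.44 without division by length. Pdlim3 reached the detection threshold in libraries 1 and 4 alone, with 42, 4, 16 and 42 reads.

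Focal adhesion genes had 10 of 11 members detected. Tln1, encoding the talin that activates integrins in most cells, had log2 levels of 11.21, 10.49, 10.21 and 10.86 in libraries 1 to 4. Ilk, the integrin-linked pseudokinase, had log2 levels of 8.33, 7.81, 8.28 and 8.77. Its value is uncertain, since 86.7% of the 50-base words of its longest transcript also occur in other genes, most of them in Taf10 on the other strand. As deposited, Ptk2, encoding the kinase FAK, spanned no more than 1.18-fold, with log2 levels of 8.26, 8.09, 8.02 and 8.08. Its SD of 0.10 rose to 0.18 with size factors, and its highest library changed from library 1 to library 3. Tln2, the second talin, had log2 levels of 7.98, 6.88, 5.49 and 5.78, high in libraries 1 and 2 and lowest in library 3 under both scalings. Its share of the talin reads per kb was 5.40%, 4.17%, 1.98% and 1.55%. Parvb, a parvin of muscle, had log2 levels of 3.20, 3.88, 3.35 and 4.15, and Parva, the widely expressed form, exceeded it by 4.32 ± 0.57 log2 units per kb. Parvg, the parvin of blood cells, had 1 read in library 1 and none in the others.

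Vcl, encoding vinculin, which reinforces the link of talin to actin under force, had log2 levels of 9.27, 7.62, 9.61 and 10.09 in libraries 1 to 4. Library 2 stood low and library 4 was highest, a span of 5.53-fold. The gene lies on chromosome 14 from 20929433 to 21033673 (GRCm38), and its last 2232 bases overlap Ap3m1 on the other strand in the table. In the longest Vcl transcript, 39.2% of the 50-base words also occur in Ap3m1, whose mean log2 level was 6.81. The library kit marks strand, but the strand setting of the counting is not given in the sources used here. The level of Vcl and its span between libraries are therefore uncertain. Vinculin was chosen for fuller description after its values were seen.

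Each of 23 pairs of genes was compared within libraries, as log2 scaled reads per kb. In 21 of 23 pairs the difference had the same sign in 4 of 4 libraries, and the sign-flip permutation test (exact, two-sided) gave an adjusted p = 0.137 (Benjamini-Hochberg over 23 pairs). A test of 4 libraries cannot give a smaller raw p than it gave here, and no pair could pass a threshold of 0.05. The differences covered a wide range, with Actr2 above Actr3 by 0.48 ± 0.23 log2 units and Actn1 above Actn2 by 11.71 ± 0.28. With the longest transcript as length Actr2 minus Actr3 was 0.15 ± 0.23 and was negative in library 4 (-0.09). Sequence shared with other genes also leaves the level of Actr3 uncertain. Capza1 minus Capza2 was the single negative difference among the 21, at -1.63 ± 0.18. Shared sequence leaves the level of Capza1 uncertain too.

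The median SD of the 52 detected genes was 0.43 on the log2 scale, and that of all detected genes was 0.43. Of the 52, 19 had an SD above 0.5 (36.5%), against 40.5% of all detected genes. With size factors 20 of 52 passed this limit, against 30.8%, so the order of the 2 shares depended on the scaling. Above an SD of 1 lay 6 of the 52 (11.5%), namely Wasf3, Tln2, Lmod1, Pdlim4, Vcl and Diap2, against 5.8% of all detected genes. With size factors these were 4 of 52, against 4.24%, namely Pdlim4, Lmod1, Vcl and Csrp1. Lmod1 and Vcl had at least 3516 and 5690 reads in every library, while Wasf3, Diap2 and Pdlim4 had between 33 and 507. The genes nearest to the limit of 0.5 were Tmod3 at 0.49 and Capza2 at 0.51.

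**Figure D3:**
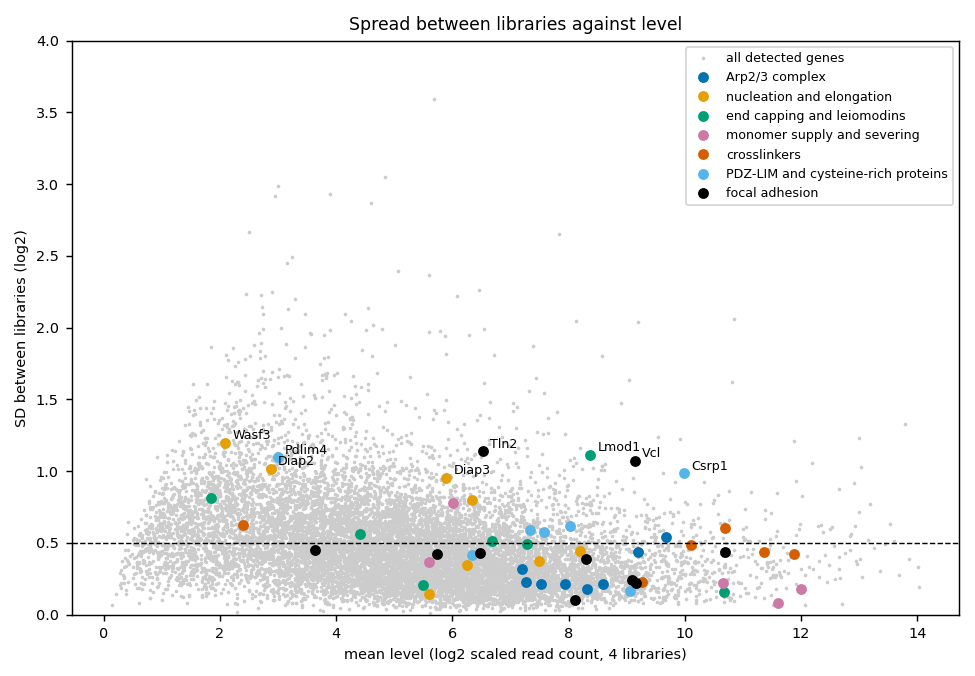
SD between the 4 libraries against mean level, both on the log2 scale, for all detected genes in grey and the 52 detected scaffold genes coloured by role, with a dashed line at an SD of 0.5. Lmod1, Vcl and Csrp1 have SDs of 1.11, 1.07 and 0.99 at mean levels of 8.38, 9.15 and 9.99.

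The libraries differed in which scaffold genes they held at the highest level. Library 4 had the highest value for 16 of 52 genes (30.8%), against 10.8% of all detected genes, and library 1 for 23 of 52 (44.2%), against 53.6%. Libraries 2 and 3 were highest for 9 and 4 of the 52, against 23.6% and 12% of all detected genes. Library 2 had the lowest value for 14 of 52, against 13.2%, library 3 for 22, against 52.9%, library 1 for 9, against 16.3%, and library 4 for 7, against 17.5%. By Dixon's ratio 0 of 52 had 1 library apart from the other 3, against 4.09% of all detected genes. The deposited scaling leaves the median of all detected genes at 5.49, 5.22, 4.78 and 4.95 in libraries 1 to 4. Median-ratio size factors moved these medians by -0.32, -0.10, 0.30 and 0.12. With these factors library 4 was highest for 24 of 52 genes, against 17.1% of all detected genes, library 1 for 10, against 31.2%, library 2 for 7, against 21.7%, and library 3 for 11, against 30.0%.

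A single pattern, highest in library 4 and lowest in library 2, covered 10 of 52 genes (19.2%), against 4.64% of all detected genes. Among the 10 genes were Lmod1, Vcl, Csrp1, Enah, Pdlim5, Pdlim7, Ilk, Zyx and Actr3, in order of their SD, and the pattern was chosen after the values were seen. Their level in library 4 minus that in library 2 ran from 0.39 to 2.57 on the log2 scale, a difference whose sign the choice of the pattern fixes. Over all 52 genes its median was 0.13, compared with -0.21 over all detected genes. With size factors 9 of the 10 kept the pattern, Enah being lowest in library 1, and Actn1, Arpc2, Flna, Parva, Pdlim1 and Tln1 joined them, which made 15 of 52 against 6.51%. Without library 1 the pattern covered 17 of 52 genes, against 10.8% of all detected genes, and without library 3 it covered 10, against 7.96%. The summed level of the 7 smooth muscle markers was 14.01, 13.44, 14.72 and 14.98 on the log2 scale in libraries 1 to 4, and so was also lowest in library 2 and highest in library 4, as were 5 of the 7 markers singly. That of the 7 adventitial fibroblast markers was 10.05, 9.88, 7.76 and 7.48. That of the 6 pericyte markers was 9.70, 8.92, 10.75 and 11.05, with the same highest and lowest library, as for 2 of the 6 singly, Cspg4 and Mcam. Of the others, Notch3 was highest in library 1 and lowest in library 4. The part of these markers in the pattern was not tested.

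Another arrangement, with library 1 highest and library 3 lowest, covered 16 of 52 genes (30.8%), near the 38% of all detected genes. It held Tln2, Wasf3, Diap2, Actn4, Arpc1b, Capza1 and Capza2 among others. With size factors Tln2, Wasf3, Diap2, Actn4, Capza1, Capza2, Tmod3 and Pxn kept this arrangement. Arpc1b became highest in library 2 and Ptk2 in library 3, and Arpc2, Parva, Pdlim1, Tln1, Arpc3 and Actr2 became highest in library 4. The share over all detected genes with size factors was not computed for this arrangement. Vasp, Arpc5, Cfl1, Pfn1, Csrp2 and Parvb were highest in library 4 and lowest in library 1 (6 of 52, against 3.57%). With library 1 highest, library 2 was lowest for 4 genes (against 5.79%) and library 4 for 3 (against 9.82%). With library 2 highest, library 3 was lowest for 6 genes (against 12.4%), library 4 for 3 (against 5.88%) and library 1 for 0 (against 5.38%). With library 3 highest, library 1 was lowest for 3 genes (against 7.35%), library 4 for 1 (against 1.84%) and library 2 for 0 (against 2.78%), and 0 genes were highest in library 4 and lowest in library 3 (against 2.61%). Of all 52 genes, 31 kept both their highest and their lowest library with size factors, and of the 19 with an SD above 0.5, 17 did. A large SD favours keeping them, and the share over all detected genes was not computed.

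**Figure D4:**
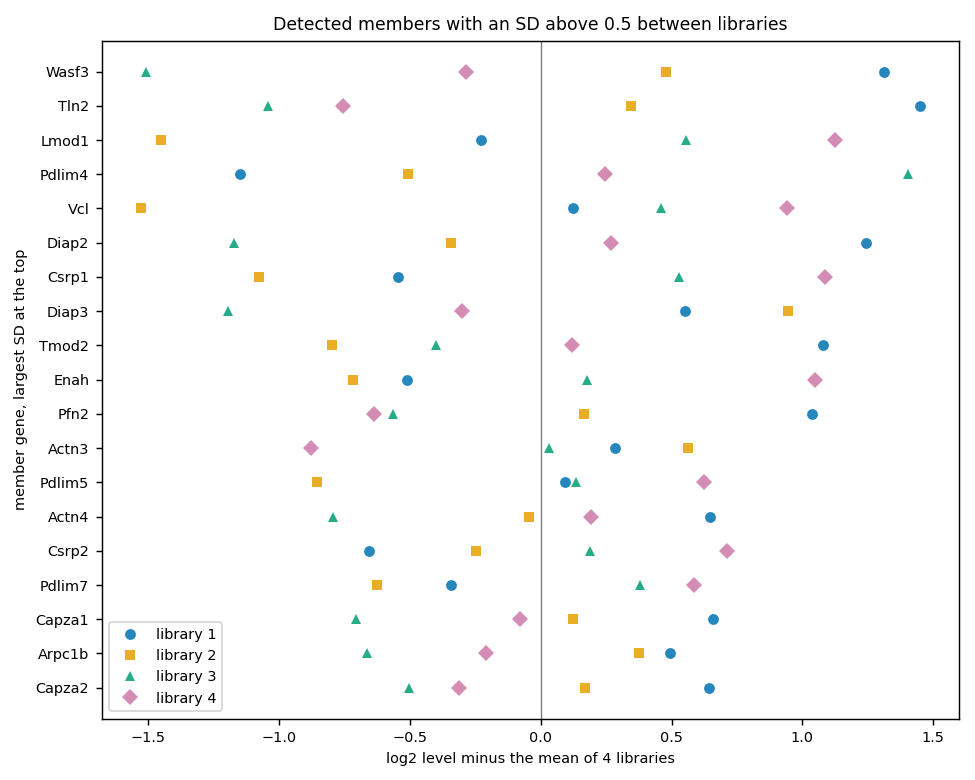
Log2 level minus the mean of the 4 libraries for the 19 genes with an SD above 0.5, largest SD at the top. Lmod1, Vcl, Csrp1, Pdlim5 and Pdlim7 have library 2 on the far left and library 4 on the far right, while Tln2, Wasf3 and Diap2 have library 3 on the far left and library 1 on the far right.

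Promoter sequence from RefSeq (GRCm38.p6, 250 bases before and 50 after a start site) was matched by symbol for 45 of the 60 genes. The CArG box, the element bound by serum response factor in many smooth muscle genes, was searched as its consensus, which reads alike on both strands. No mismatch was allowed, so variants of the box were not counted. It occurred for 2 of 45 genes (4.44%), Vcl and Arpc4, compared with 1.81% of all 27025 genes in the promoter table. Among detected genes it was 2 of 39 (5.13%), compared with 1.64%. The element CATTCC, bound by TEAD factors, or its complement GGAATG occurred for 11 of 45 (24.4%), compared with 16.6% of all genes. Among detected genes it was 9 of 39 (23.1%), compared with 14.5%. Of the 10 genes highest in library 4 and lowest in library 2, 9 had a promoter, of which 1 held a CArG box and 2, Vcl and Lmod1, held GGAATG. The 250 bases before the start site are shown for the genes with a CArG box and for Lmod1, with CArG boxes and CATTCC or GGAATG in capitals. A match describes the letters and is not a measured binding site. The Vcl stretch is chr14:20929148-20929397, the Arpc4 stretch chr6:113377863-113378112 and the Lmod1 stretch chr1:135324563-135324812, all on the plus strand.
Vcl: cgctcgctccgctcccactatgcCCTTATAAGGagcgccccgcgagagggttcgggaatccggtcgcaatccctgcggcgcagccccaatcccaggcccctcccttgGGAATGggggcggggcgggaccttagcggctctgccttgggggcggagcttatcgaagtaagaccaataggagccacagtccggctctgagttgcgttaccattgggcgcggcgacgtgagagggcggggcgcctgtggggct
Arpc4: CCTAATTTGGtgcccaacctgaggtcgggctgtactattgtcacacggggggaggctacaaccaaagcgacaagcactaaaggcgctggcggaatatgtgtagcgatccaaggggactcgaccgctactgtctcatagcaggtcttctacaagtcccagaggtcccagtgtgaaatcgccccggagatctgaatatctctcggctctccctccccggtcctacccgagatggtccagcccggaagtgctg
Lmod1: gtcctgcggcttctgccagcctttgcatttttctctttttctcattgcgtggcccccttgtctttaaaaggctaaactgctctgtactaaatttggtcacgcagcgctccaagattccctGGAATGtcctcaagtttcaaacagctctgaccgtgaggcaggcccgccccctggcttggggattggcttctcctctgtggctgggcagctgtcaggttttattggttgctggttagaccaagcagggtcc

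The CArG box of Vcl began 227 bases before the start site and that of Arpc4 250 bases before it, at the edge of the window. Vcl and Arpc4 differed in their values, since Vcl was lowest in library 2 and Arpc4 in library 1. The GGAATG of Vcl began 143 bases and that of Lmod1 130 bases before the start site.

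Genes that work beside these 60 were examined in 4 lists. Of 110 such genes, 91 were detected (82.7%, against 47.4% of all genes). Of the 91, 17 lay in the top 10% per kb (18.7%), and 40 had an SD above 0.5 (44.0%, against 40.5% of all detected genes). Among genes of monomer binding and turnover, 23 of 27 were detected, and Tmsb4x, which sequesters monomers, and Dstn, a relative of the cofilins, averaged 10.96 ± 0.35 and 10.06 ± 0.60 log2 scaled reads per kb. The slingshot phosphatase gene Ssh2 had the largest SD among detected genes of that list (0.90). Among nucleation and branching genes, 23 of 28 were detected, led by Brk1, a WAVE complex subunit (8.69 ± 0.19 per kb), and Cttn, encoding the branch stabiliser cortactin (7.77 ± 0.41), and Fhod3, a formin of heart muscle, had the largest SD of the detected genes (0.91). Bundling and membrane linkage genes had 15 of 20 detected, led by Msn, encoding moesin (8.33 ± 0.41), and the spectrin gene Sptan1 (7.82 ± 0.18), with Sptbn1 the most variable of the detected genes (SD 0.92). Focal adhesion adaptors had 30 of 35 detected, led by Fhl1 (7.45 ± 0.64) and the tensin gene Tns1 (6.71 ± 0.50). Lims2, encoding the ILK partner PINCH2, had the largest SD of the detected genes of that list (1.11). Its log2 levels were 5.66, 4.25, 6.41 and 6.74 in libraries 1 to 4, lowest in library 2 and highest in library 4. Fhl1 and Tns1 were instead highest in library 1.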

How the data were processed

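RNA was sequenced from 4 cultures of aortic smooth muscle cells. The submitters' processing notes name Trim Galore, cutadapt, TopHat and the build GRCm38, with no version of any tool. What was counted, with which tool, annotation and strand setting, is not given in the sources used here. The authors deposited log2 values of scaled read counts per gene, not divided by length. To recover whole reads, linear values were divided by what 1 read was worth in each library (0.0340 to 0.0455), taking the floor of genes without reads as 0.9 read, and between 99.7% and 99.8% of the values above the floor lay within 0.05 read of a whole number. A count of 0 allows up to 3 reads, for counting error only.

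Exon lengths are unions of GENCODE M21 exons (GRCm38), found for 60 of 60 genes. Spread is the SD over 4 libraries, and pairs were compared with an exact sign-flip permutation test. Shared sequence was measured as 50-base words of the longest transcript found in transcripts of other genes on either strand, above 10% for 10 of 60 genes, led by Ilk (86.7%) and Capza1 (77.4%). Alternatives were other detection thresholds, size factors, lengths and SD limits, no filter, and leaving out each library. The genes and lists were chosen with earlier results of these data known. Values in every library were given for the 2 highest, the lowest and the most variable gene of each role, and for genes detected in some libraries. Coordinates of genes are those of the deposited table. Values of 1 detected gene are not reported here, though it is counted. The procedures were tested on simulated reads. Computations used pandas 2.3.3, scipy 1.17.1 and numpy 2.4.6 under Python 3.11.15, with figures by matplotlib 3.10.9.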

Additional observations from a re-analysis of the deposited data

Results flagged for a closer look

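Library 3 held 40342561 reads on genes, apart from the other 3 libraries, with a gap of 0.923 of the whole range. The Csrp1 share of its family in library 2 (79.7%) lay below the other shares, with a gap of 0.8291 of the range, and the complementary Csrp2 share (20.3%) above them by the same 0.8291. Lmod3 had 24 reads in library 4 and none elsewhere (gap 0.915), and the Parvg share rested on 1 read in library 1 (gap 1). Chance flags about 1 in 20 groups of 4 values.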

How the results depend on the processing

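No paired analysis was possible because all libraries belong to 1 group. The count of 52 detected genes, the read share, the 21 pairs with 1 sign and the 91 detected neighbouring genes kept within 1.5 times or 1 SD of their values under each alternative run for them. With an SD limit of 1, 6 genes were variable. The median level of 5.61 per kb was 5.84 with detection at a log2 level of 2, 4.82 without a filter, 6.11 with the longest transcript as length and 7.87 without division by length. With size factors library 1 was highest for 10 genes and library 3 for 11. Leaving out each library in turn gave 5.42 to 5.69 for the median level, 1.64% to 1.78% for the read share, 52 to 53 detected genes, 16 to 21 variable genes, 21 to 22 pairs with 1 sign and 91 to 93 detected neighbouring genes. The library with the highest value was library 1 for 24 to 31 genes, library 2 for 10 to 21, library 3 for 4 to 13 and library 4 for 17 to 27, where library 2 reached 21 and library 4 27 without library 1, and library 3 13 without library 4. Leaving out a library passes the genes it topped to the others. For these counts, and for variable genes with a library left out, shares over all detected genes were not computed. Of 23 pairs, Pdlim7 minus Pdlim5 reversed without division by length (-0.44), and the other means kept their sign under each alternative. With the longest transcript as length, 20 pairs had 1 sign in all libraries. Of the SDs, 43 of 52 stayed on their side of 0.5 with size factors, and 4 genes (Actn4, Arpc1b, Capza1 and Capza2) fell below it while 5 (Arpc4, Ilk, Parvb and Vasp among them) rose above it. With the longest transcript as length, 31 of 38 family shares stayed within 1 SD. Shallow counts limit Wasf1, Pdlim3, Actn2, Tmod4, Lmod3 and Parvg. The pattern, the size-factor values of single genes, and the shares and signs per library with another length were added after the data were seen.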
